A study of Mus musculus with 768 samples.

Results

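Lingo1, Lingo2, Lingo3, Lrrtm1, Lrrtm2, Lrrtm3 and Lrrtm4 encode leucine-rich repeat membrane proteins of neurons, and their RNA was followed across the cell classes of the mouse striatum. These 7 genes, 3 of the Lingo and 4 of the Lrrtm family, were taken by name from the 24489 genes of a table of read counts from single nuclei. They were picked with their levels in these nuclei already known, so every level and contrast below is a description and carries no test. The study profiled 768 striatal nuclei, each in a well of its own, on 2 plates of equal size. Nuclei of one plate carried Oprm1-Cre:H2BG and those of the other Slc32a1-Cre:H2BG, both C57BL/6 and untreated, so that the Cre allele differed and H2BG was shared. Oprm1, the mu-opioid receptor gene, is a known marker of striatal patches, and Slc32a1, the vesicular GABA transporter gene, is used by GABAergic neurons at large. No label names an animal, an age or a sex. Each plate therefore counts as 1 sample, and plate, genotype and donor cannot be told apart. Reads of Y-linked genes were found in 90.99% of Oprm1-Cre nuclei and in none of the Slc32a1-Cre nuclei, which allows a share of up to 0.787% with 3 nuclei as the floor. Xist, a gene expressed in female cells, had reads in 1.97% of Oprm1-Cre and 72.7% of Slc32a1-Cre nuclei. By these genes the plates also differed in sex, which cannot be told apart from genotype.

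After wells with few reads were left out, 736 nuclei remained, with a median of 169398 reads in Oprm1-Cre and 175337 reads in Slc32a1-Cre nuclei. Spiny projection neurons (SPNs) are the GABAergic output cells of the striatum: D1 SPNs carry the dopamine receptor gene Drd1 and the neuropeptide gene Tac1, and D2 SPNs carry Drd2, Adora2a and Penk. Nuclei were classed from such markers and from clusters rebuilt here, so the classes may differ from those of the study. In all, 490 nuclei were D1-like, 83.7% of the Oprm1-Cre and 50.7% of the Slc32a1-Cre nuclei. D2-like nuclei made up 6.76% and 38.6%, with only 24 nuclei for Oprm1-Cre, and 32 were interneuron-like, 14 of them Oprm1-Cre and 18 Slc32a1-Cre. Drd1 (listed as Drd1a) reached 1824 counts per 1e+06 reads (CPM) in Oprm1-Cre D1-like nuclei against 13.6 CPM in the D2-like ones, and 2163 against 15.6 CPM among Slc32a1-Cre nuclei. Levels are reads of a gene over reads of all genes, summed over the nuclei of a class and plate. Square brackets hold exact 95% Poisson intervals for levels and Clopper-Pearson intervals for shares. They cover counting error only, not the spread between nuclei or animals, since reads without molecular identifiers are not independent molecules.

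Lingo proteins carry leucine-rich repeats and an immunoglobulin domain outside the cell. LINGO1 is known as a co-receptor of the Nogo receptor complex, which restrains axon growth and myelination, while LINGO2 and LINGO3 are less well described. LRRTM proteins sit in the postsynaptic membrane, where they bind presynaptic neurexins and, for LRRTM3 and LRRTM4, heparan sulfate proteoglycans such as glypicans, and help to organise excitatory synapses. SPNs receive such synapses from cortex and thalamus. Striatal interneurons fall into cholinergic, Sst, Th and Pvalb or Pthlh types, among others.

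The promoters of Lingo2 and Lrrtm4 are shown because both genes were lower in Oprm1-Cre than in Slc32a1-Cre D1-like nuclei, and that of Lingo3 because this gene had similar levels in D1-like and D2-like nuclei. Each line holds the 250 bases before a start site in RefSeq (GRCm38.p6), in the direction of the gene, 5′ to 3′. The Lingo2 window is chr4:35845205-35845454 on the minus strand, the Lrrtm4 window chr6:80018627-80018876 on the plus strand and the Lingo3 window chr10:80844040-80844289 on the minus strand. None of these windows overlaps an annotated exon of its gene, and the Lingo2 window is intronic to longer Lingo2 transcripts. Capitals mark matches on either strand to the motifs searched, which were the TATA box (TATAAA), the CCAAT box, the GC box (GGGCGG) and the cAMP response element (TGACGTCA).
Lingo2: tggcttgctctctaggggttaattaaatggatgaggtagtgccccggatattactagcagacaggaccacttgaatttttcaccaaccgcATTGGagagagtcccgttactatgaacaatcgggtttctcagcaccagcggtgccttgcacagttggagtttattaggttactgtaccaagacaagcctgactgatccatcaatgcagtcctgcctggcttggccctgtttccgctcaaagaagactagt
Lrrtm4: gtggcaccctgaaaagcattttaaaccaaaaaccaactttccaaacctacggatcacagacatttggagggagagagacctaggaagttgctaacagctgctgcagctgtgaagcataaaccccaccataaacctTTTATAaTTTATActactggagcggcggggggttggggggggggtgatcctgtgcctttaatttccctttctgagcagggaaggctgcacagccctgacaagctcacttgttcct
Lingo3: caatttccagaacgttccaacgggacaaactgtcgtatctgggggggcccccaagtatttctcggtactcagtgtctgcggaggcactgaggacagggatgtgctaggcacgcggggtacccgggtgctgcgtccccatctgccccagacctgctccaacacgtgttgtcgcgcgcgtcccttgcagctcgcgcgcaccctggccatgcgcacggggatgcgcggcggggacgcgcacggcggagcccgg
Lingo2 held 1 match to the CCAAT box on the opposite strand, 160 bases before the start, and 33.85% of all 32851 such windows in RefSeq held this motif. Lrrtm4 held 2 matches to the TATA box on the opposite strand, where the capitals stand, against 12.37% of all windows with a match. Lingo3 held none of the motifs, while the GC box was present in 32.74% and the cAMP response element in 1.55% of all windows. Base composition differed too, with 48.4% GC in the Lingo2 window, 49.2% in that of Lrrtm4 and 66.8% in that of Lingo3, around a median of 52.4%. The windows held 6, 3 and 27 CpG dinucleotides, around a median of 6. A match describes letters only.

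The genes differ in size and surroundings (GENCODE, GRCm38). Lingo2 spans chr4:35706647-36951747 and Lrrtm4 spans chr6:80018877-80810143, against chr10:80832801-80844039 for Lingo3 and chr9:56618475-56796468 for Lingo1. Lrrtm1 (chr6:77242689-77257791) lies inside Ctnna2, Lrrtm2 (chr18:35209003-35215024) inside Ctnna1 and Lrrtm3 (chr10:63928472-64090277) inside Ctnna3, each on the strand opposite to its alpha-catenin host. Exons overlapped by 95 bases for Lrrtm2 and Ctnna1 and by 0 for the other pairs with a host. Exons of Lrrtm4 overlapped those of the antisense gene Gm4409, which has no row of its own among the counts, by 1543 bases. No source used here says whether counting used strand, so reads from such overlaps cannot be told apart. Per kilobase of exon, Lingo3 led the 7 genes in D1-like nuclei, with 95.7 CPM per kb for Oprm1-Cre and 84.7 for Slc32a1-Cre, and Lrrtm3 followed with 67.6 and 84.2. The intervals of these 2 genes overlapped for Slc32a1-Cre. Lingo1, with 9.79 and 12.7 CPM per kb, and Lingo2, with 6.97 and 17.9, came last in D1-like nuclei.

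Of the 7 genes, Lingo2 had the widest contrast between the SPN classes. In D1-like nuclei it reached 57.8 CPM [55.8, 59.9] for Oprm1-Cre and 148.4 CPM [144.3, 152.4] for Slc32a1-Cre. In D2-like nuclei it was listed with 1 read over the 24 Oprm1-Cre nuclei, or 0.242 CPM [0.00614, 1.35], and with 3 reads over all Slc32a1-Cre nuclei, or 0.102 CPM [0.0210, 0.297]. These 4 reads came from 4 nuclei with 262471 to 324268 reads each. The ratio of D1-like over D2-like levels was 238.6 [42.8, 9428] for Oprm1-Cre and 1458 [499, 7074] for Slc32a1-Cre. Lingo2 varied widely among D1-like nuclei: the lowest had 0, the median 0 and the highest 946 CPM for Oprm1-Cre, against 0, 14.7 and 1523 CPM for Slc32a1-Cre. After each nucleus was thinned to 50000 reads, Lingo2 was detected in 31.2% [25.9, 36.8] of Oprm1-Cre and 51.04% [43.7, 58.3] of Slc32a1-Cre D1-like nuclei, and in 0 D2-like nuclei on either plate. Without thinning, the D1-like shares were 38.05% and 55.96%. SPN-like nuclei left undecided between the classes had 213.7 CPM of Lingo2 for Oprm1-Cre and 108.7 CPM for Slc32a1-Cre. Reads were found in 7 of 17 and 7 of 18 of these nuclei.

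**Figure D1:**
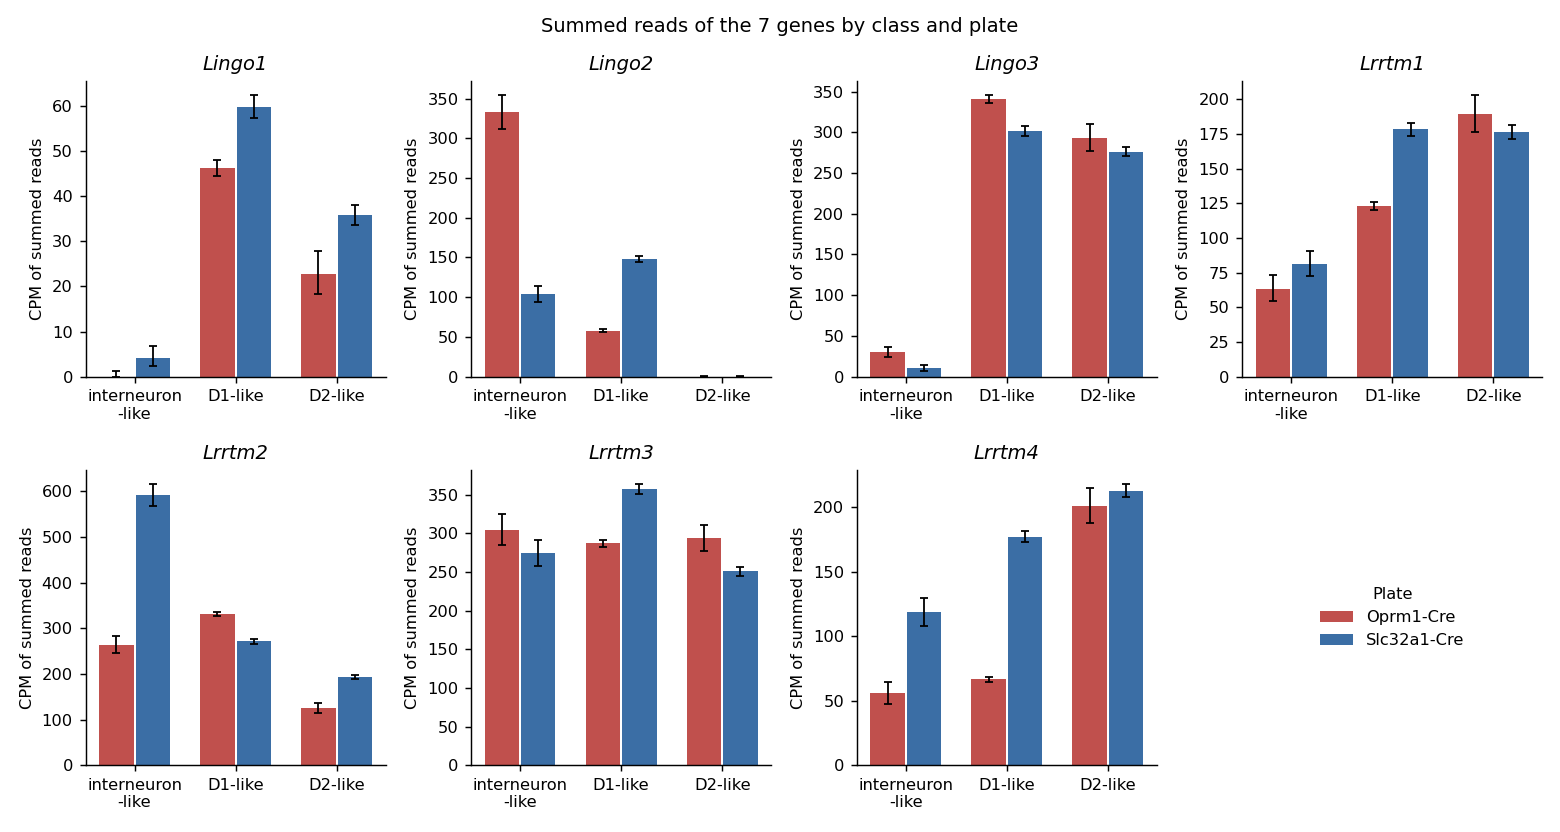
Level of each gene (CPM of reads summed over nuclei, linear axis from 0) by class, for Oprm1-Cre (red) and Slc32a1-Cre (blue). Bars are 1 plate each and whiskers are exact 95% Poisson intervals for counting error. Lingo2 is near 0 in D2-like nuclei, and Lingo1 and Lingo3 are low in interneuron-like nuclei.

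**Figure D2:**
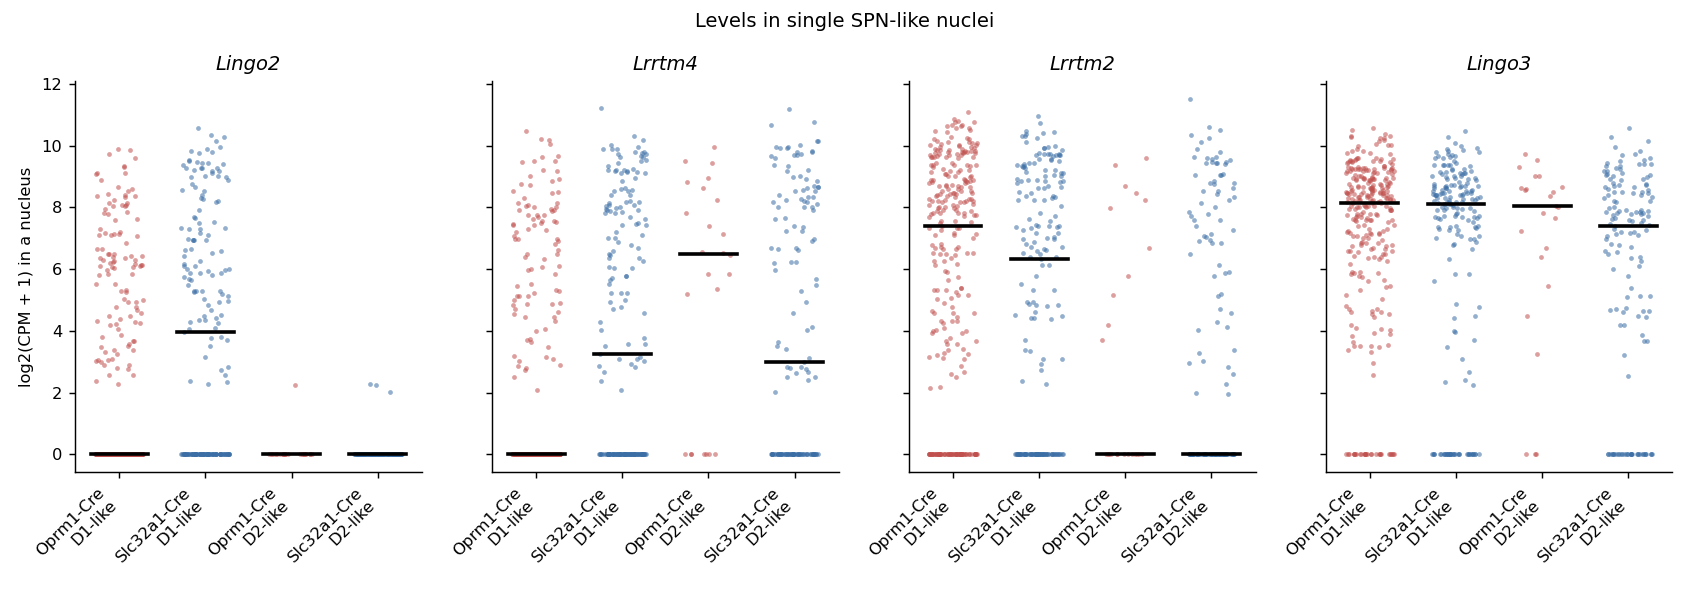
Levels in single nuclei (log2 of CPM + 1) of selected genes, with 1 point per nucleus, for D1-like and then D2-like nuclei of Oprm1-Cre (red) and Slc32a1-Cre (blue). Black lines are medians over nuclei. Points at 0 are nuclei without a read, and only 4 D2-like nuclei lie above 0 for Lingo2.

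Genes count as measured here where either side has at least 5 CPM, and as past the limit where the log2 ratio, with 5 CPM added to both sides, exceeds 0.5 either way. For D1-like over D2-like nuclei, 3 of the 7 genes were past it upwards among Oprm1-Cre nuclei, where 30.3% of 11101 measured genes were, and 2 downwards, where 19.4% were. Among Slc32a1-Cre nuclei 3 were past it upwards, where 14.6% of 10874 genes were, and 0 downwards, where 10.4% were. The median log2 ratio of the 7 genes was 0.21 and 0.48, beside 0.10 and 0.03 over all measured genes. Only 24 D2-like nuclei stand behind the Oprm1-Cre contrast.

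The summed level of Lingo1 was higher in D1-like nuclei on both plates. Among Oprm1-Cre nuclei it had 46.1 CPM [44.4, 47.98] in the D1-like and 22.8 CPM [18.4, 27.9] in the D2-like class (log2 ratio 0.88). The Slc32a1-Cre levels were 59.7 CPM [57.2, 62.4] and 35.7 CPM [33.6, 37.97] (log2 ratio 0.67). The intervals were apart on either plate, but they cover counting error only. After thinning, 37.3% of D1-like and 41.7% of D2-like Oprm1-Cre nuclei had a Lingo1 read, so the share was not higher in the D1-like class. For Slc32a1-Cre the shares were 39.6% and 23.1%. Lingo3 differed little, with 340.7 against 293.1 CPM for Oprm1-Cre and 301.6 against 276.3 CPM for Slc32a1-Cre (log2 ratios 0.21 and 0.12). It was lower in SPN-like nuclei left undecided between the classes, with 161.7 and 183.9 CPM. In these undecided nuclei Lingo1 had 64.4 CPM for Oprm1-Cre and 10.9 CPM for Slc32a1-Cre. Lingo3 was detected after thinning in 86.4% of Oprm1-Cre and 77.6% of Slc32a1-Cre D1-like nuclei, and in 79.2% and 74.8% of the D2-like ones.

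Among the Lrrtm genes, Lrrtm2 had 331.3 CPM [326.5, 336.2] in D1-like against 126.1 CPM [115.5, 137.4] in D2-like Oprm1-Cre nuclei (log2 ratio 1.36). For Slc32a1-Cre it had 271.5 CPM [266.1, 277.01] against 193.1 CPM [188.1, 198.2], a log2 ratio of 0.48 that fell short of the limit. In the undecided nuclei Lrrtm2 had 253.4 CPM for Oprm1-Cre and 598.7 CPM for Slc32a1-Cre. Lrrtm4 ran the other way among Oprm1-Cre nuclei, with 66.6 CPM [64.5, 68.8] in the D1-like and 200.97 CPM [187.5, 215.1] in the D2-like class (log2 ratio -1.52). Its Slc32a1-Cre levels were 177.2 CPM [172.8, 181.6] and 212.8 CPM [207.6, 218.2] (log2 ratio -0.26), so the wide gap went with the low D1-like level of Oprm1-Cre nuclei. Lrrtm3 had 287.3 against 294.1 CPM for Oprm1-Cre (log2 ratio -0.03) and 357.9 against 251.05 CPM for Slc32a1-Cre (log2 ratio 0.50, just past the limit and within it under 4 of 10 alternatives). Lrrtm1 had 123.3 against 189.3 CPM (log2 ratio -0.60) and 178.3 against 176.5 CPM (log2 ratio 0.01). For Oprm1-Cre, 1 D2-like nucleus held 28.04% of the Lrrtm1 reads, and with each gene's top nucleus left out of both sums the log2 ratio was -0.24. Leaving these nuclei out moved the median of all measured genes to 0.54, and relative to that median Lrrtm1 stood at -0.78, beside -0.70 with all nuclei. Differences between the plates in these contrasts were not tested.

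Interneuron-like nuclei as a class had little Lingo1 and Lingo3, and Lingo2 was high in most Th nuclei of Oprm1-Cre. With 14 Oprm1-Cre and 18 Slc32a1-Cre nuclei, these levels rest on few cells. Against SPN-like nuclei, 1 of the 7 genes was past the limit upwards for Oprm1-Cre, where 31.1% of 11569 measured genes were, and 3 downwards, where 39.8% were. For Slc32a1-Cre 1 was past it upwards, where 30.9% of 11556 genes were, and 4 downwards, where 34.1% were. The median log2 ratio was -0.42 and -0.67 over the 7 genes and -0.13 and -0.04 over all measured genes. With each gene's top nucleus left out of both sums, the median over all measured genes was -1.02 for Oprm1-Cre and -0.65 for Slc32a1-Cre, so ratios under that setting are also given relative to this median.

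Lingo1 had 0 reads in the 14 Oprm1-Cre interneuron-like nuclei, against 45.3 CPM in SPN-like nuclei, and was at least 44.1-fold lower with 3 reads over the group as the floor. For Slc32a1-Cre it had 16 reads, or 4.15 CPM [2.37, 6.74], in interneuron-like nuclei against 47.1 CPM in SPN-like nuclei (log2 ratio -2.51), and 15 of these reads were in 1 cholinergic nucleus. Lingo3 had 30.1 CPM [24.1, 37.1] against 330.6 CPM for Oprm1-Cre (log2 ratio -3.26) and 10.1 CPM [7.19, 13.8] against 285.4 CPM for Slc32a1-Cre (log2 ratio -4.26). The Lingo3 reads lay in few nuclei, since 1 Oprm1-Cre nucleus held 62.5% and 1 Slc32a1-Cre nucleus 79.5% of them. In the 3 Oprm1-Cre Sst nuclei Lingo3 had 104.6 CPM, with 0, 87.9 and 217.99 CPM in single nuclei, against 8.39 CPM in the Th nuclei. When whole clusters were classed, with no single nucleus moved, the Lingo1 contrast of Oprm1-Cre changed side (log2 ratio 0.13 over 18 nuclei), while Lingo3 stayed lower (-2.48 and -1.999). This classing was chosen after the data were seen.

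Lingo2 had 332.7 CPM [312.2, 354.3] in interneuron-like against 59.9 CPM in SPN-like nuclei for Oprm1-Cre (log2 ratio 2.38), and 104.03 CPM [94.1, 114.7] against 81.8 CPM for Slc32a1-Cre (log2 ratio 0.33). The plates held different interneuron types: 11 Th and 3 Sst nuclei for Oprm1-Cre, and 8 Pvalb or Pthlh, 5 Sst, 3 cholinergic and 2 Th nuclei for Slc32a1-Cre, each nucleus going by the marker list it scored highest on. In Th nuclei Lingo2 reached 399 CPM for Oprm1-Cre, with reads in 9 of 11 nuclei and a median nucleus of 191.9 CPM. The 2 Slc32a1-Cre Th nuclei had 43.2 and 902 CPM, and the higher one held 51.4% of the Lingo2 reads of the class. With each gene's top nucleus left out, the Slc32a1-Cre log2 ratio turned to -0.48 (0.17 relative to the median gene, beside 0.37 with all nuclei), and with whole clusters classed it was -0.14. In the other types Lingo2 had 104.6 CPM in Oprm1-Cre and 17.1 CPM in Slc32a1-Cre Sst nuclei, 110.8 CPM in cholinergic and 55.97 CPM in Pvalb or Pthlh nuclei.

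The Lrrtm genes also varied between interneuron types. Lrrtm3 stayed within the limit in interneuron-like against SPN-like nuclei, with 304.7 against 285.01 CPM for Oprm1-Cre (log2 ratio 0.09) and 274.2 against 305.8 CPM for Slc32a1-Cre (log2 ratio -0.15). With each gene's top nucleus left out the Slc32a1-Cre ratio was -0.72, or -0.07 relative to the median gene, beside -0.11 with all nuclei. Within the interneuron-like class, however, Lrrtm3 had 0 reads in the 3 Oprm1-Cre and 1 read in the 5 Slc32a1-Cre Sst nuclei. In Th nuclei the same gene had 393 and 1140.0 CPM, and in Pvalb or Pthlh nuclei 264.3 CPM. Lrrtm4 had 0 reads in all Sst and cholinergic nuclei. It had 71.98 CPM in Oprm1-Cre Th nuclei, with reads in 4 of 11, and 4.38 and 955 CPM in the 2 Slc32a1-Cre ones. In Pvalb or Pthlh nuclei Lrrtm4 had 105.1 CPM, with reads in 3 of 8. Over the whole class Lrrtm4 had 55.7 against 76.2 CPM in SPN-like nuclei for Oprm1-Cre (log2 ratio -0.42) and 118.6 against 191.4 CPM for Slc32a1-Cre (log2 ratio -0.67). In the Slc32a1-Cre class 1 nucleus held 62.8% of the Lrrtm4 reads, and with each gene's top nucleus left out the log2 ratio was -0.71 for Oprm1-Cre and -1.86 for Slc32a1-Cre. Relative to the median gene these were 0.31 and -1.22, beside -0.29 and -0.63 with all nuclei, so the Oprm1-Cre one changed side.

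Lrrtm2 had reads in every interneuron type but not in every nucleus, with 225.6 CPM in Th and 393 CPM in Sst nuclei of Oprm1-Cre. Of the 11 Oprm1-Cre Th nuclei 6 had a read, with a median nucleus of 3.78 CPM and a highest of 1106 CPM. All 3 Oprm1-Cre Sst nuclei had a read, against 3 of 5 Sst and 1 of 2 Th nuclei of Slc32a1-Cre. For Slc32a1-Cre the Lrrtm2 level ran from 272.5 CPM in Sst to 869 CPM in Pvalb or Pthlh nuclei. Against SPN-like nuclei Lrrtm2 had 263.3 against 314.5 CPM for Oprm1-Cre (log2 ratio -0.25) and 591 against 251.4 CPM for Slc32a1-Cre (log2 ratio 1.22). A single Pvalb or Pthlh nucleus at 4112 CPM held 45.6% of these reads. With each gene's top nucleus left out the log2 ratio was 0.48, or 1.13 relative to the median gene, beside 1.26 with all nuclei. Lrrtm1 was lower in interneuron-like nuclei, with 63.3 against 127.7 CPM (log2 ratio -0.96) and 81.5 against 178.2 CPM (log2 ratio -1.08). The Oprm1-Cre ratio of Lrrtm1 was -0.26 with whole clusters classed. With each gene's top nucleus left out the Slc32a1-Cre one was -2.004, or -1.36 relative to the median gene, beside -1.04 with all nuclei. Lrrtm1 had 4 reads in the Oprm1-Cre and 3 in the Slc32a1-Cre Sst nuclei. Lrrtm1, Lrrtm3 and Lrrtm4 were thus all near 0 in Sst nuclei, where the summed level of Lrrtm2 was not.

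**Figure D3:**
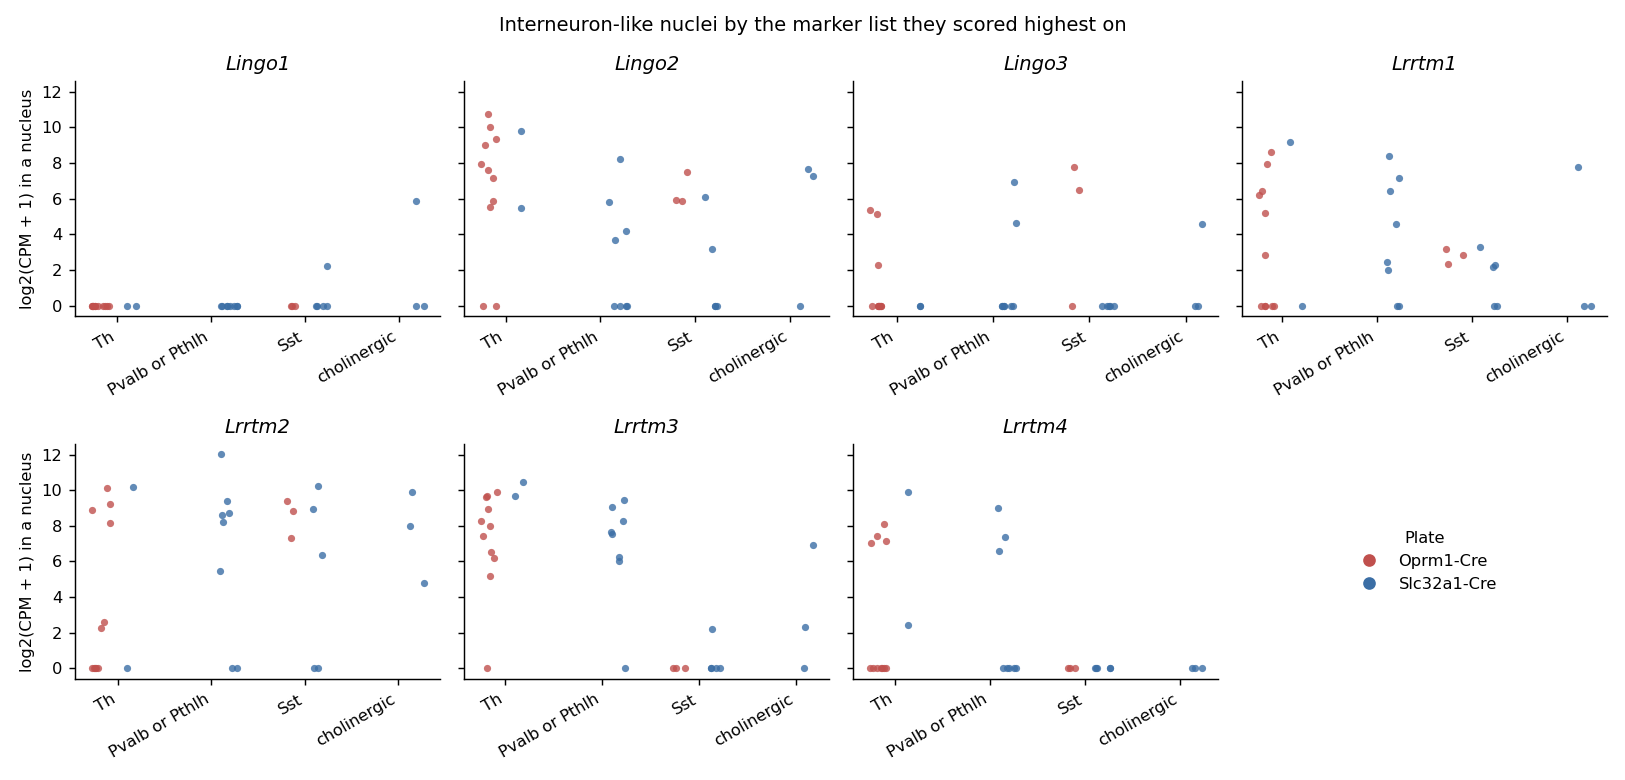
Levels in single interneuron-like nuclei (log2 of CPM + 1), grouped by the marker list on which a nucleus scored highest, for Oprm1-Cre (red) and Slc32a1-Cre (blue). Each point is 1 nucleus. Lrrtm4 is at 0 in every Sst and cholinergic nucleus, and Lrrtm3 is at or near 0 in Sst nuclei.

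Between the plates, Lingo2 and Lrrtm4 were lower in Oprm1-Cre than in Slc32a1-Cre D1-like nuclei. Lingo2 had 57.8 CPM in Oprm1-Cre and 148.4 CPM in Slc32a1-Cre nuclei (log2 ratio -1.29), and Lrrtm4 had 66.6 and 177.2 CPM (log2 ratio -1.35). These ratios stood at percentiles 0.782 and 0.627 of the 10998 measured genes. Lrrtm1 was also lower, with 123.3 and 178.3 CPM (log2 ratio -0.51, or -0.49 from the mean of the nuclei's CPM), so that 3 of 7 genes were past the limit downwards, where 12.2% of genes were, and 0 upwards, where 15.1% were. The other genes stayed within it: Lingo1 with 46.1 and 59.7 CPM (log2 ratio -0.34), Lrrtm3 with 287.3 and 357.9 CPM (-0.31), Lingo3 with 340.7 and 301.6 CPM (0.17) and Lrrtm2 with 331.3 and 271.5 CPM (0.28). The median log2 ratio was -0.34 over the 7 genes and 0.00 over all measured genes.

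Both the number of nuclei with Lrrtm4 reads and the level in them were lower for Oprm1-Cre. After thinning, 26.8% [21.8, 32.2] of Oprm1-Cre and 49.5% [42.2, 56.8] of Slc32a1-Cre D1-like nuclei had a Lrrtm4 read (32.3% and 55.4% without thinning). Among D1-like nuclei with a read, the median level of Lrrtm4 was 123.7 CPM for Oprm1-Cre and 224.2 CPM for Slc32a1-Cre, and that of Lingo2 68.7 and 110.6 CPM. In D2-like nuclei Lrrtm4 differed little between the plates, with 200.97 CPM for Oprm1-Cre and 212.8 CPM for Slc32a1-Cre (log2 ratio -0.08).

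The D1-like nuclei of the plates also differed in make-up, and the part of this in the ratios was not tested. A patch score, which sets the mean log2 level of 9 genes of the patches against that of 7 genes of the matrix, had a median of 1.21 for Oprm1-Cre and -3.04 for Slc32a1-Cre. Oprm1, whose Cre allele defines the Oprm1-Cre plate, is among the 9, so this gap is not independent of genotype. Summed markers of oligodendrocyte precursors came to 76.3 CPM for Oprm1-Cre and 34.7 CPM for Slc32a1-Cre (1 and 1 of 5 markers at 0), and those of microglia to 5.44 and 1.68 CPM (2 and 4 of 5 at 0), so both sums were higher for Oprm1-Cre. The precursor markers include Vcan, which was also among the leading genes of SPN-like cluster 0. Most nuclei of that cluster were Oprm1-Cre. The part of Vcan in the precursor sum was not tested, so this sum is not a measure of precursor material alone. The sums lay closer together for oligodendrocytes (229.4 and 217.7 CPM, 0 and 0 of 6 markers at 0) and astrocytes (77.8 and 88.5 CPM, 0 and 1 of 6 at 0). Excitatory neuron markers summed to 1.19 and 0.485 CPM.

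Levels were also set side by side within the 4 clusters that held at least 15 D1-like nuclei of each plate. These nuclei were not matched on the patch score, whose median was 2.12 for Oprm1-Cre against 0.62 for Slc32a1-Cre in cluster 0 and -2.18 against -3.32 in cluster 1. In cluster 4 it was 1.08 against -4.12, a wider gap than over the whole class, and in cluster 5 -2.10 against -2.68. The clusters were built with the 7 genes and genes of X and Y kept in, and Ddx3y, a Y-linked gene, led cluster 0. Levels within clusters were not recomputed with those genes left out. Lrrtm4 was lower for Oprm1-Cre in each of the 4 clusters, with 69.9 against 147.6 CPM in cluster 0, 101.6 against 210.004 CPM in cluster 1, 45.4 against 97.2 CPM in cluster 4 and 106.96 against 178.5 CPM in cluster 5. Lingo2 was lower in clusters 0, 1 and 4, with 42.6 against 89.9, 82.4 against 188.7 and 65.2 against 85.5 CPM. In cluster 5 the Lingo2 intervals overlapped, 127.9 CPM [114.9, 141.96] and 132.9 CPM [120.9, 145.8]. Without thinning, the share of nuclei with a Lingo2 read was lower for Oprm1-Cre only in cluster 4, with 46.3 against 60.7%. It was 30.3 against 25% in cluster 0, 63.6 against 60.5% in cluster 1 and 63.2 against 61.9% in cluster 5. The Lrrtm4 share was lower for Oprm1-Cre in clusters 0, 1 and 4, but higher in cluster 5, with 63.2 against 47.6%. Lrrtm1 had no common direction: it was higher for Oprm1-Cre in cluster 0, with 120.3 against 86.7 CPM, near equal in cluster 1, with 209.1 against 216.7 CPM, and lower in clusters 4 and 5, with 111.8 against 162.98 and 76.6 against 104.2 CPM.

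**Figure D4:**
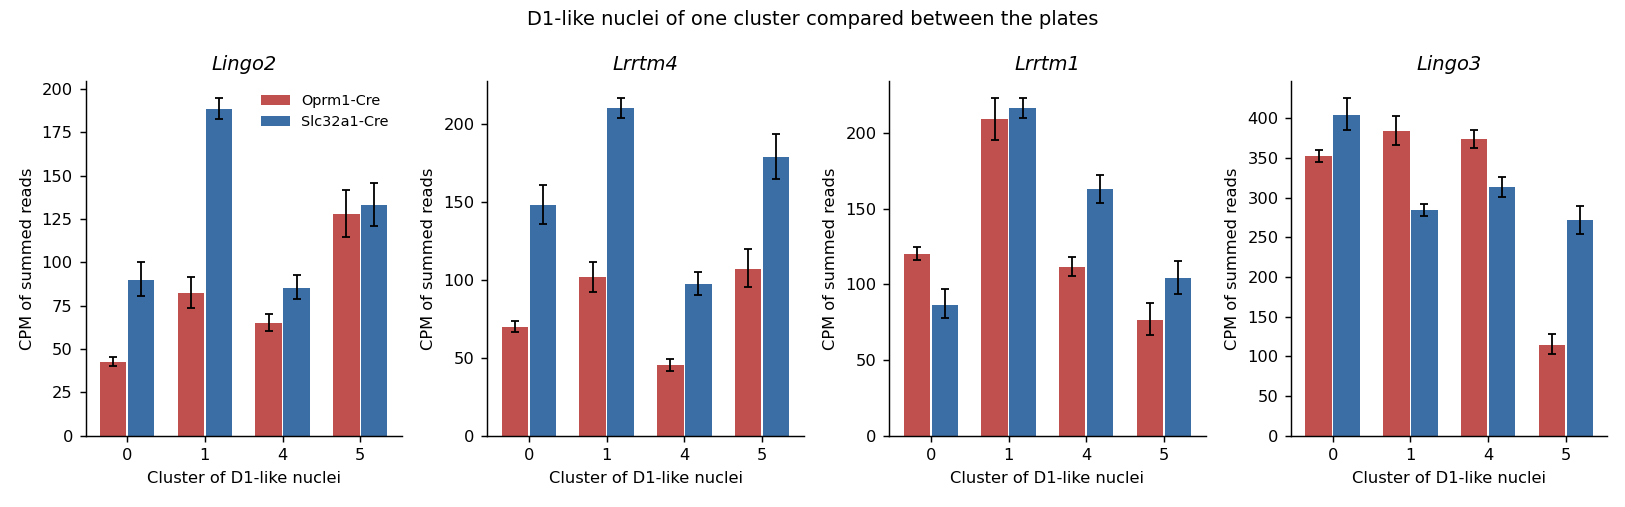
Level (CPM of summed reads, linear axis from 0) of selected genes in D1-like nuclei of the clusters with at least 15 of them from each plate, for Oprm1-Cre (red) and Slc32a1-Cre (blue). Whiskers are exact 95% Poisson intervals for counting error. Lrrtm4 is lower for Oprm1-Cre in all 4 clusters and Lingo2 in clusters 0, 1 and 4.

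In D2-like nuclei 2 of the 6 measured genes were past the limit downwards between the plates, where 29.2% of 10969 genes were, and 0 upwards, where 23.5% were. Lrrtm2 had 126.1 CPM for Oprm1-Cre and 193.1 CPM for Slc32a1-Cre (log2 ratio -0.60) and Lingo1 had 22.8 and 35.7 CPM (-0.55, or -0.46 from the mean of the nuclei's CPM). Lrrtm1, Lrrtm3 and Lingo3 stayed within the limit, with log2 ratios of 0.10, 0.22 and 0.08, and Lingo2 was too low to be measured. The median log2 ratio was 0.00 over the 6 genes and -0.06 over all measured genes.

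The patch score divided the D1-like nuclei of each plate further. Patches, or striosomes, are compartments of the striatum rich in mu-opioid receptor, set in the surrounding matrix. For Oprm1-Cre, Lingo2 had 42.2 CPM in nuclei above and 74.3 CPM in nuclei below the median score (log2 ratio -0.75), and Lrrtm4 had 51.4 and 82.7 CPM (-0.64). These were the 2 of 7 genes past the limit downwards, where 13.4% of 11062 genes were, and 0 were past it upwards, where 12.1% were. Fewer nuclei above than below the median held a read, 27.03% against 49.3% for Lingo2 and 25.7% against 38.5% for Lrrtm4. The other log2 ratios for Oprm1-Cre were 0.37 for Lingo1, 0.36 for Lingo3, -0.12 for Lrrtm1, 0.03 for Lrrtm2 and 0.13 for Lrrtm3.

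For Slc32a1-Cre, nuclei above the median still scored from -3.04 to 4.07, and other genes moved. Lingo1 had 41.5 CPM above and 76.3 CPM below the median (log2 ratio -0.81) and Lrrtm1 had 141.9 and 208.03 CPM (-0.54, or -0.49 with at least 100000 reads per nucleus), the 2 genes past the limit downwards, where 17.8% of 11017 genes were. Lingo2, with 188.7 CPM above and 115.7 CPM below (log2 ratio 0.68), was the 1 gene past it upwards, where 16.1% were. Its direction depends on the measure. The median nucleus had 9.06 CPM of Lingo2 above and 18.99 CPM below, and Pearson's r with the score was -0.14 across nuclei. Without thinning, the share of nuclei with a Lingo2 read was 53.1% above and 59.4% below. Nuclei below the median were deeper, with a median of 185006 reads against 158302 above. After thinning to 50000 reads the shares lay close together, at 50.5% above and 52.1% below. Lrrtm4 had 202.3 and 157.8 CPM (0.35), and Lingo3, Lrrtm2 and Lrrtm3 had log2 ratios of 0.08, -0.01 and -0.01. The median log2 ratio of the 7 genes was 0.03 for Oprm1-Cre and -0.01 for Slc32a1-Cre, beside -0.02 and -0.02 over all measured genes.

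Quartiles of the patch score were also set side by side. The Oprm1-Cre quartile with the lowest scores, from -6.12 to -0.75 in 75 nuclei, overlapped in score with each Slc32a1-Cre quartile. It had 63.8 CPM of Lingo2, against 123.1, 103.6, 232.9 and 146.996 CPM in the Slc32a1-Cre quartiles from the lowest to the highest scores. Lrrtm4 had 82.9 CPM, against 140.7, 171.1, 221.96 and 183.8 CPM. The summed levels of both genes were thus lower than in each Slc32a1-Cre quartile. Shares of nuclei with a read were less uniform: for Lingo2 the Oprm1-Cre quartile had 53.3%, against 61.2, 56.2, 64.6 and 41.7%, so that the Slc32a1-Cre quartile with the highest scores had the lowest share. For Lrrtm4 the share was 42.7%, against 53.1, 56.2, 64.6 and 47.9%.

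**Figure D5:**
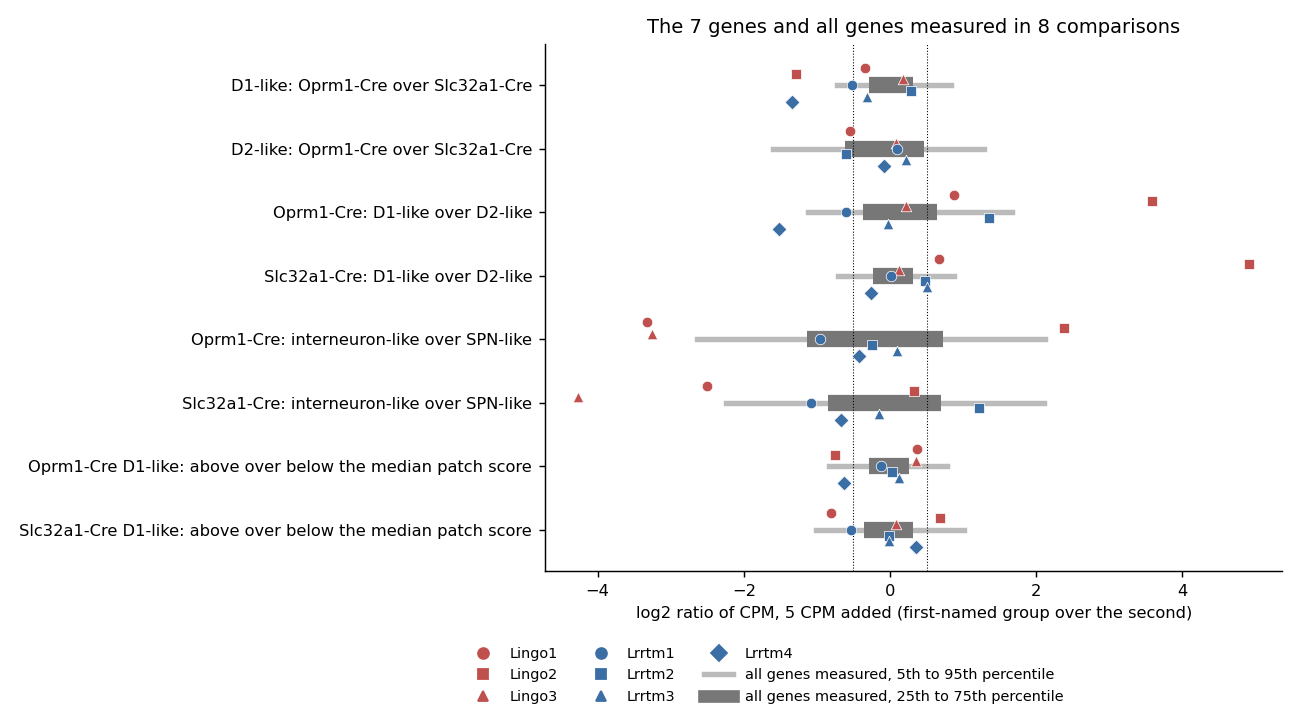
Log2 ratio of CPM (5 CPM added) of the 7 genes in 8 comparisons, first-named group over the second, as points (Lingo genes red, Lrrtm genes blue), with the spread of all measured genes as grey bars. Dotted lines mark -0.5 and 0.5. Lingo2 lies right of the grey bars for D1-like over D2-like nuclei, and Lingo2 and Lrrtm4 lie left of them for D1-like nuclei, Oprm1-Cre over Slc32a1-Cre.

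Single nuclei used different subsets of the 7 genes. The median D1-like nucleus held reads of 4 genes for Oprm1-Cre and 5 for Slc32a1-Cre, the median D2-like nucleus of 4 on either plate, and all 7 were found together in 11 Oprm1-Cre and 9 Slc32a1-Cre D1-like nuclei. Levels were close to unrelated across nuclei: over the 21 pairs, the median Pearson's r of log2(CPM + 1) was 0.03 in Oprm1-Cre D1-like, 0.02 in Slc32a1-Cre D1-like and 0.08 in Slc32a1-Cre D2-like nuclei. The highest values were 0.17 for Lingo1 with Lingo3 in Oprm1-Cre D1-like, 0.15 for Lingo2 with Lrrtm1 in Slc32a1-Cre D1-like and 0.28 for Lingo1 with Lrrtm3 in Slc32a1-Cre D2-like nuclei. Lingo2 reads were found in 48 of the 96 Oprm1-Cre D1-like nuclei with Lrrtm4 reads and in 32.3% of those without, and for Slc32a1-Cre in 59.8% and 51.2%. The nuclei compared come from the same plate and vary in depth, and their counts are sparse, so these weak values are descriptions only.

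The genes most like a member across D1-like nuclei also followed it weakly, with a mean r over the plates of at most 0.23 among 9029 genes compared. Lingo2 was closest to Pcdh9 (0.23), a protocadherin gene, Gria4 (0.19), an AMPA receptor subunit gene, and Wfs1 (0.18). Lrrtm4 was closest to Wtap (0.18), Cdkn1a (0.17) and Cnppd1 (0.17). The closest gene was Ppp2r2a (0.22) for Lingo1, Gsg1l (0.20), an AMPA receptor accessory gene, for Lingo3, Nit1 (0.22) for Lrrtm1, Oxct1 (0.23) for Lrrtm2 and Sgip1 (0.20) for Lrrtm3. With the alpha-catenin hosts, r in Oprm1-Cre and Slc32a1-Cre D1-like nuclei was -0.07 and 0.02 for Lrrtm1 and Ctnna2, 0.00 and 0.24 for Lrrtm2 and Ctnna1, and 0.07 and 0.08 for Lrrtm3 and Ctnna3.

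A cluster of 16 SPN-like nuclei led by Chst9, Pcdh8 and Otof, 5 of them Oprm1-Cre and 11 Slc32a1-Cre, had 191.95 CPM of Lingo2, 495 CPM of Lrrtm2 and 149.4 CPM of Lingo3, with Lingo2 reads in 7 of the 16.

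Genes that act with the 2 families were described from lists. Between the plates, 15.1% of all measured genes were past the limit upwards and 12.2% downwards in D1-like nuclei, and 23.5% and 29.2% in D2-like. For D1-like over D2-like nuclei they were 30.3% and 19.4% for Oprm1-Cre and 14.6% and 10.4% for Slc32a1-Cre. In the same order they were 31.1% and 39.8%, and 30.9% and 34.1%, for interneuron-like over SPN-like nuclei. For the patch score they were 12.1% and 13.4%, and 16.1% and 17.8%. Counts near these are not particular to a list. Of 14 LRRTM partners, among them neurexins, glypicans and receptor phosphatases, 2 higher and 0 lower of 10 measured were past the limit in D1-like nuclei between the plates (median log2 ratio 0.15). The glypican gene Gpc6 had 38.4 CPM in Oprm1-Cre against 5.23 CPM in Slc32a1-Cre nuclei (log2 ratio 2.09), and the neurexin gene Nrxn3 had 805 against 559 CPM (0.52). For D1-like over D2-like nuclei the counts were 4 higher and 2 lower of 10 for Oprm1-Cre (median 0.39) and 2 higher and 1 lower of 10 for Slc32a1-Cre (median 0.33). The neurexin gene Nrxn2 was lower in the D1-like class, with 11.9 against 40.5 CPM for Oprm1-Cre (log2 ratio -1.42) and 9.05 against 23.6 CPM for Slc32a1-Cre (-1.03). For interneuron-like over SPN-like nuclei the counts were 7 higher and 1 lower of 10 (median 0.90) and 6 higher and 3 lower of 12 (median 0.77). Nrxn2 had 74.2 against 14.7 CPM for Oprm1-Cre and 121.4 against 17.2 CPM for Slc32a1-Cre there, and the glypican gene Gpc4 had 117.8 against 0.282 CPM for Slc32a1-Cre. In D2-like nuclei between the plates the partners were 4 higher and 2 lower of 9 (median 0.32), and above over below the median patch score 0 higher and 1 lower of 10 (median -0.13) for Oprm1-Cre and 2 higher and 0 lower of 10 (median 0.19) for Slc32a1-Cre.

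Of 10 genes of the Nogo receptor complex and its ligands, 1 higher and 2 lower of 7 measured were past the limit in D1-like nuclei between the plates (median log2 ratio -0.21). Tnfrsf19, which encodes the TROY co-receptor, had 54.4 CPM in Oprm1-Cre against 28.6 CPM in Slc32a1-Cre nuclei (log2 ratio 0.82). For D1-like over D2-like nuclei the counts were 3 higher and 2 lower of 6 for Oprm1-Cre (median 0.04) and 2 higher and 1 lower of 7 for Slc32a1-Cre (median 0.06). Tnfrsf19 changed side there, with 54.4 against 3.39 CPM for Oprm1-Cre and 28.6 against 61.8 CPM for Slc32a1-Cre. For interneuron-like over SPN-like nuclei they were 3 higher and 3 lower of 8 (median -0.38) and 0 higher and 4 lower of 6 (median -1.03), and Tnfrsf19 had 0 reads in interneuron-like nuclei of either plate, against 50.2 and 45.1 CPM in SPN-like nuclei. In D2-like nuclei between the plates the genes were 1 higher and 3 lower of 6 (median -0.52), and above over below the median patch score 2 higher and 1 lower of 6 (median 0.07) for Oprm1-Cre and 0 higher and 1 lower of 7 (median -0.15) for Slc32a1-Cre.

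Of 23 other neuronal leucine-rich repeat genes, 2 higher and 2 lower of 18 measured were past the limit in D1-like nuclei between the plates (median log2 ratio 0.07). Slitrk1 had 65.8 CPM in Oprm1-Cre against 25.99 CPM in Slc32a1-Cre nuclei (log2 ratio 1.19), and Lrrn1 had 10.04 against 37.3 CPM (-1.49). For D1-like over D2-like nuclei the counts were 5 higher and 3 lower of 18 for Oprm1-Cre (median 0.10) and 4 higher and 4 lower of 19 for Slc32a1-Cre (median 0.06), where Slitrk6 had 0.857 against 42.7 CPM (log2 ratio -3.03). For interneuron-like over SPN-like nuclei they were 7 higher and 9 lower of 23 (median -0.15) and 6 higher and 5 lower of 21 (median 0.10), and Lrrn1 had 291.7 against 12.1 CPM for Oprm1-Cre (log2 ratio 4.12). In D2-like nuclei between the plates the genes were 3 higher and 7 lower of 19 (median -0.17), and above over below the median patch score 1 higher and 0 lower of 18 (median 0.06) for Oprm1-Cre and 4 higher and 6 lower of 19 (median -0.08) for Slc32a1-Cre. Of the alpha-catenin hosts, Ctnna1 had 123.2 CPM in Oprm1-Cre against 77.3 CPM in Slc32a1-Cre D1-like nuclei (log2 ratio 0.64). In interneuron-like against SPN-like nuclei Ctnna1 had 8.55 against 117.8 CPM for Oprm1-Cre and 11.9 against 75.3 CPM for Slc32a1-Cre (log2 ratios -3.18 and -2.24), beside -0.25 and 1.22 for Lrrtm2, which lies inside it.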

How the data were processed

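Read counts per gene and well were used as the authors deposited them, in the joint table of both plates. Per the submitters' processing notes the build was mm10, and SAMtools and Seurat were used. The sources used here do not give the aligner, the counter, the annotation or the strand setting, and the labels' protocol describes extraction with a column kit and a stranded total RNA kit. Spike-in rows (92) and 1 reporter row were left out of totals. Of 384 wells a plate, 355 Oprm1-Cre and 381 Slc32a1-Cre nuclei with at least 20000 reads and 1000 genes were kept. With Python 3.11.15 and scanpy 1.11.5, nuclei were clustered (2000 variable genes, 30 components, 15 neighbours, Leiden resolution 1) into 9 clusters and classed by marker scores. D1-like and D2-like nuclei had scores over 2 apart, and 15 Oprm1-Cre and 16 Slc32a1-Cre nuclei lay within 0.5 of that limit. Limits that moved single nuclei (4 and 6) were set after scores were seen. This gave 297 D1-like, 24 D2-like, 17 undecided SPN-like, 14 interneuron-like and 3 unclassed Oprm1-Cre nuclei, and 193, 147, 18, 18 and 5 Slc32a1-Cre nuclei. Doublet candidates (12 and 11) were kept, and an alternative leaves them out. Each well is a library of its own, so none shares cell barcodes.

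Counts were summed per plate and class. With 1 sample per group there was no test. The comparison was tested on simulated data, drawn from pooled proportions with no spread between nuclei. That check covers the calculation and counting error only, not sums that rest on few nuclei. Members and lists were chosen with earlier results of these data known. Genes named from a list are among the 3 furthest past the limit in a direction. Not every such gene is reported here. Likeness is the mean Pearson r over the plates, among genes with a read in at least 10% of D1-like nuclei of each plate.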

Additional observations from a re-analysis of the deposited data

Results flagged for a closer look

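Lingo2 moved in opposite directions with the patch score: the log2 ratio of D1-like nuclei above over below the median score was -0.75 for Oprm1-Cre and 0.68 for Slc32a1-Cre. The difference was not tested. For Slc32a1-Cre the share of nuclei with a read was 53.1% above and 59.4% below without thinning, and 50.5% and 52.1% after thinning to 50000 reads.

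Wells left out for few reads also held reads of the genes. Lrrtm1 had 16 reads in 12 of the 29 Oprm1-Cre wells left out, which held 22834 reads in all, above the 3 reads taken as a floor.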

How the results depend on the processing

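No paired analysis was possible because each genotype is 1 plate and no test was made. The number of the 7 genes past the limit stayed within 1.5 times that reported in 81 of 88 recomputations. With a limit of 1 in place of 0.5 it was 0 in D2-like nuclei between the plates, 3 and 1 in D1-like over D2-like nuclei for Oprm1-Cre and Slc32a1-Cre, and 0 and 0 for the patch score. In D2-like nuclei between the plates 1 gene, Lrrtm2, was left with the mean of the nuclei's CPM and 1, again Lrrtm2, with at least 100000 reads per nucleus. Of 560 recomputed log2 ratios, 498 stayed within their counting interval. The counts of recomputed ratios given here include values that could not move, so they overstate stability. The minimum level does not enter a log2 ratio, so dropping it repeats the main values. Classing each nucleus alone left the number of D1-like nuclei and their median ratio between the plates unchanged. So did clustering without the 7 genes and genes of X and Y. Among ratios past the limit, 1 of 270 recomputed values changed sign: Lingo1 in interneuron-like over SPN-like nuclei for Oprm1-Cre, 0.13 with clusters taken whole; the cause was not tested. Among ratios within the limit, 20 of 290 changed sign, in 10 pairs of a gene and a comparison. In D1-like nuclei between the plates, over 10 alternatives, Lingo2 ranged from -1.37 to -1.25, Lrrtm4 from -1.40 to -1.28 and Lrrtm1 from -0.53 to -0.49. Lrrtm3 in D1-like over D2-like nuclei for Slc32a1-Cre ranged from 0.45 to 0.54. Of 84 recomputed shares, 68 stayed within the interval. Few D2-like nuclei for Oprm1-Cre and few interneuron-like nuclei limit those values.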
